A study of Nothobranchius furzeri with 20 samples.

Results

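The genes described here are 150 of the 26739 gene identifiers counted in the livers of male turquoise killifish (Nothobranchius furzeri) and are those whose median level at 7 weeks of age stood highest above their medians at 5, 10 and 14 weeks. They were chosen from the read counts themselves. Counts were scaled to CPM (read counts scaled to a common library total) and turned into log2(CPM + 0.5), and the median of the 5 fish was taken at each age. A gene had to reach a median of at least 5 CPM at 1 or more ages, to lie outside the 100 most abundant genes, and to have medians at 5, 10 and 14 weeks that spanned less than 0.8 on the log2 scale. Its score was the 7-week median minus the highest of the other 3 medians, and the 150 genes of highest score, all at 1 or more, are the members. The level limits left 10284 genes, of which 8134 were flat over 5, 10 and 14 weeks by this measure, and 536 of those had a score of 1 or more. Differences in level between 7 weeks and the other ages therefore chose the members and are given as a description. A test over all genes, given further below, covers these differences too, and nothing is read from its counts of members.

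The series holds 20 liver RNA-seq libraries from male fish of the GRZ strain, 5 at each of the ages 5, 7, 10 and 14 weeks, and each library is called a fish here. GRZ is an inbred laboratory strain with a short life span, and the labels give no treatment or mutation for any fish. Fish numbers serve as names within an age and pair nothing across ages. The labels do not say that the libraries came from separate animals, so the spread between fish is the spread between these libraries.

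The turquoise killifish lives in seasonal ponds and passes through growth, sexual maturity and ageing faster than other laboratory fish. The fish liver makes most plasma proteins, stores and releases lipid and glycogen, makes bile and clears foreign compounds, and it holds hepatocytes beside blood, immune, vessel and bile duct cells. Which of these functions the members serve is not known from the sources used here. The files do not pair the identifiers with gene names, and 0 of the 26739 identifiers matched a RefSeq gene (assembly NfurGRZ-RIMD1), so members are given by identifier, length and level. For the same reason the labelled tissue could not be checked against liver markers. In bulk tissue, a change in the number of cells of a type and a change in RNA per cell cannot be told apart.

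Library totals ran from 22529235 to 42886761 counts, and 3 reads in a library, the limit that a count of 0 allows, were 0.0700 to 0.133 CPM, for counting error only. None of the 3000 values of the members was 0, and the fewest reads behind a member in any fish were 2. Together the members took 0.945% to 1.53% of the counts of the 7-week libraries, against 0.174% to 0.856% in the 15 libraries of the other ages.

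The label of a peak at 7 weeks held for the medians by construction, but not for every fish. In most members 2 of the 5-week fish, fish 1 and fish 2, stood near the 7-week fish, while 5-week fish 3, 4 and 5 stood with the 10- and 14-week fish. The median over the members of the level above the highest other median was 1.62, 1.44, -0.19, -0.48 and -0.05 (log2) in 5-week fish 1 to 5. It was 1.87, 2.17, 1.92, 2.16 and 1.60 in 7-week fish 1 to 5. It was -0.21, -0.57, -0.10, 0.05 and -0.34 in the 10-week fish, and -0.47, -0.07, -0.23, -0.64 and 0.18 in the 14-week fish. On this summary 5-week fish 1 thus overlapped the 7-week fish, of which fish 5 was the lowest, and the other 14 fish did not. A median of 5 fish at 5 weeks is set by the low fish when 2 of the 5 are high, so such genes could meet the rule.

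**Figure D1:**
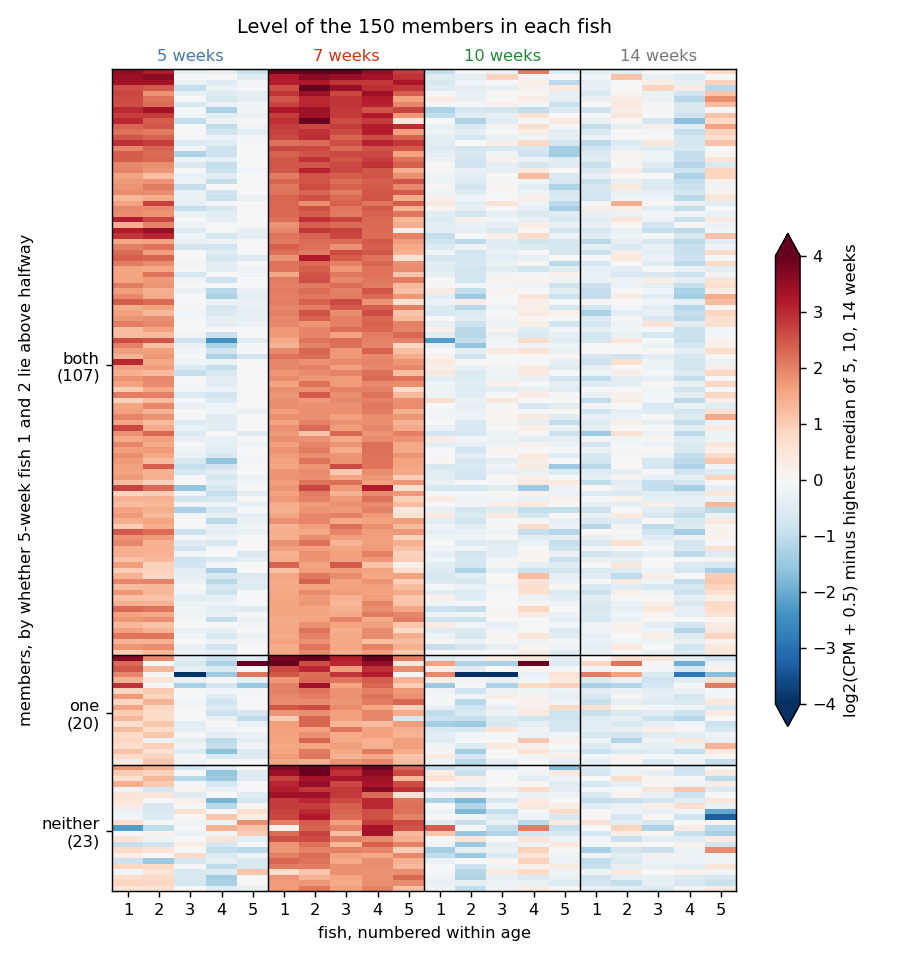
Each line is 1 of the 150 members and each column 1 fish, with ages from 5 to 14 weeks left to right. Colour is log2(CPM + 0.5) minus the gene's highest median at 5, 10 or 14 weeks. Members are grouped by whether 5-week fish 1 and 2 both lie above the midpoint to the 7-week median (107 members), exactly 1 of them does (20) or neither does (23). The first 2 columns are red in the upper block and pale in the lowest.

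Scores ran from 4.32 down to 1.55 (log2), with a median of 1.93, so that the 7-week median was 19.9-fold to 2.93-fold above the highest other median on the CPM + 0.5 scale. A score of 2 or more was reached by 69 members and of 3 or more by 9. The list ended at a dense part of the score range. Nfu_g_1_015095 and Nfu_g_1_004473, the last 2 inside, scored 1.55 each, and Nfu_g_1_021664 and Nfu_g_1_020032, the first 2 outside, scored 1.55 each as well. The limit of 150 therefore separated genes whose scores differed by less than 0.01. Nfu_g_1_015095 had medians of 34.7, 103, 28.0 and 34.9 CPM at 5, 7, 10 and 14 weeks, and Nfu_g_1_020032, outside the list, had 153, 484, 165 and 135 CPM. Nfu_g_1_004473 had 2.62, 8.79, 2.67 and 2.13 CPM, and Nfu_g_1_021664, outside the list, had 7.87, 24.0, 5.84 and 6.34 CPM. Genes of very different abundance thus met at the limit. The highest of the other 3 medians was that of 5 weeks in 94 members, 10 weeks in 30 and 14 weeks in 26. The span of these 3 medians was 0.03 to 0.80 (log2), with a median of 0.37.

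Nfu_g_1_007455, of 3522 bp, had the highest score. Its level in 5-week fish 1 to 5 was 12.7, 9.72, 0.374, 0.421 and 0.112 CPM, and in 7-week fish 1 to 5 it was 22.0, 32.4, 24.3, 12.3 and 7.15 CPM. It was 0.0713, 0.575, 0.420, 4.12 and 0.269 CPM in the 10-week fish and 0.362, 0.319, 0.647, 0.627 and 1.47 CPM in the 14-week fish. At 5 weeks fish 1 and 2 were high and lay above 7-week fish 5, and the other 3 were under 0.5 CPM. The 5-week median, 0.421 CPM, was that of a low fish. The lowest value, 0.0713 CPM in 10-week fish 1, rests on 2 reads.

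Nfu_g_1_008486, of 2725 bp, came second. At 5 weeks it stood at 138, 39.2, 7.61, 5.43 and 7.00 CPM in fish 1 to 5, and at 7 weeks at 154, 215, 92.1, 174 and 44.4 CPM. All 10- and 14-week fish lay between 6.05 and 16.1 CPM. Only 5-week fish 1 exceeded the lowest 7-week fish.

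Per length, the members stood above the other flat genes at 7 weeks and below them at the other ages. The rule chose members for a high 7-week median, and a member could meet the limit of 5 CPM at 7 weeks alone. Both differences are therefore favoured by the rule, and nothing is read from them. RPKM, the CPM divided by gene length in kilobases, was used for this. The median over the members of the age-median RPKM was 3.05, 12.4, 2.70 and 2.46 at 5, 7, 10 and 14 weeks, against 5.21, 5.74, 5.34 and 5.03 RPKM over the 7984 other flat genes. Gene lengths were like those of the other flat genes, with a median of 3023 bp against 3114 bp and a range of 333 to 11310 bp in the members. At 7 weeks the members ran from 1.49 to 434 RPKM.

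The 2 members of highest RPKM at 7 weeks had opposite patterns in the 5-week fish. Nfu_g_1_017900, of 1551 bp, showed 96.0, 74.4, 172, 113 and 176 CPM at 5 weeks (fish 1 to 5) and 742, 892, 574, 673 and 526 CPM at 7 weeks. It had 95.6, 33.1, 57.5, 108 and 184 CPM in the 10-week fish and 113, 99.8, 90.2, 99.1 and 26.0 CPM in the 14-week fish. Its 7-week fish lay above all others, and 5-week fish 1 and 2 were the lowest of their age. Nfu_g_1_007150, of 2072 bp, showed 1612, 2005, 122, 179 and 138 CPM at 5 weeks and 682, 1286, 1182, 847 and 212 CPM at 7 weeks. Its 10- and 14-week fish lay between 84.3 and 184 CPM. In this gene 5-week fish 1 and 2 exceeded every 7-week fish. Its mean was 842 ± 429 CPM at 7 weeks and 811 ± 921 CPM at 5 weeks (SD, n = 5 each), a difference smaller than either SD.

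**Figure D2:**
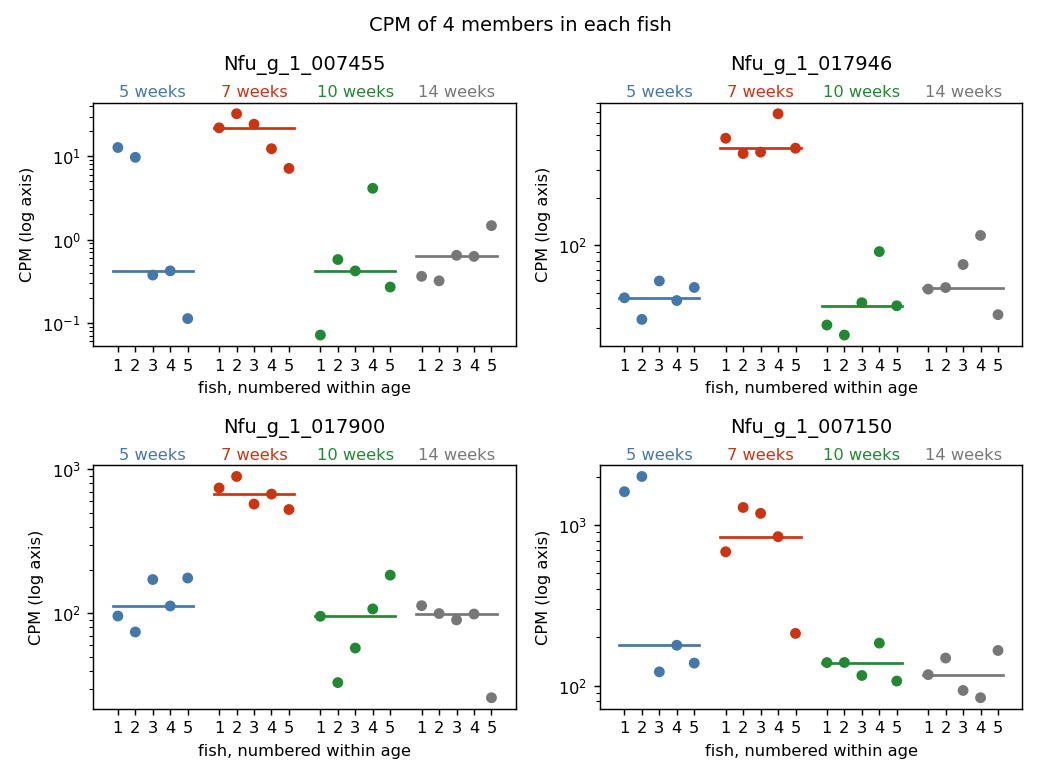
CPM (log axis) of 4 members in each fish, ages from 5 to 14 weeks left to right, with a line at the median of each age. Nfu_g_1_017946 and Nfu_g_1_017900 are high in the 7-week fish alone, while 5-week fish 1 and 2 share the level of the 7-week fish in Nfu_g_1_007455 and exceed it in Nfu_g_1_007150.

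To count the split, each fish was set against the halfway mark of each member, the midpoint on the log2 scale between the 7-week median and the highest other median. This mark was chosen after the values had been seen. Of the 150 members, 120 lay above it in 5-week fish 1 and 114 in 5-week fish 2. The counts were 0, 1 and 4 in 5-week fish 3, 4 and 5. They were 148, 150, 150, 150 and 133 in 7-week fish 1 to 5. They were 3, 0, 0, 6 and 0 in the 10-week fish and 1, 3, 0, 0 and 16 in the 14-week fish. No other fish outside 7 weeks thus came near 5-week fish 1 and 2, and 14-week fish 5 was the next. With TMM scaling, whose factors were 1.23 and 1.14 for these libraries, the counts were 108 in 5-week fish 1 and 103 in 5-week fish 2.

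In the median member, 5-week fish 1 covered 83.5% and 5-week fish 2 covered 78.4% of the distance from the highest other median to the 7-week median. They were the 2 highest of the 15 fish outside 7 weeks in 126 of 150 members (84.0%) and in 1553 of the 7984 other flat genes (19.5%). Among those 7984 are the 386 further genes of score 1 or more, and it held for 277 of the 386 (71.8%). It was thus not particular to the members. The levels of these 2 fish lay above the 7-week median itself in 35 members for fish 1 and 26 members for fish 2. Of the 7984 other flat genes, 5005 and 4331 did so, but these genes were not chosen for a high 7-week median. Across the members, which share these libraries, the levels of the 2 fish above the highest other median went together with r = 0.81, and over the 7984 other flat genes with r = 0.73. Both fish are measured from the same subtracted median. The correlation with the score was 0.31 for fish 1 and 0.19 for fish 2 over the members, and 0.53 and 0.59 over the other flat genes. The score subtracts the same median, and the members were limited to high scores, so nothing is read from these values.

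**Figure D3:**
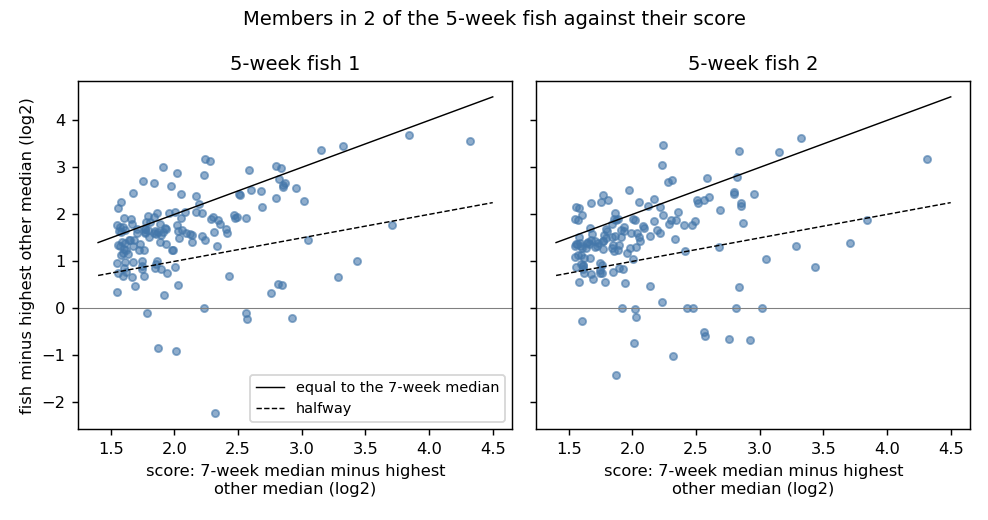
For each member, the level in 5-week fish 1 (left) and 5-week fish 2 (right) above the highest median of 5, 10 and 14 weeks is plotted against the score, both on the log2 scale. Points on the solid line equal the 7-week median, and 120 members in fish 1 and 114 in fish 2 lie above the dashed halfway line.

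Both of these fish lay above halfway in 107 members, exactly 1 of them in 20 and neither in 23. The 23 members of the last kind had higher scores, with a median of 2.32 against 1.91 in the 107, and a median of 64.2 CPM at 7 weeks against 32.1 CPM. Over these 23, the median level above the highest other median was 0.50 and 0.14 (log2) in 5-week fish 1 and 2. It was 2.31, 2.61, 2.004, 2.56 and 1.999 in 7-week fish 1 to 5. Over the 107 it was 1.74 and 1.72 in 5-week fish 1 and 2, and 1.85, 2.13, 1.98, 2.17 and 1.58 in 7-week fish 1 to 5. These subsets were formed from the values they describe, and their differences were not tested.

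The clearest separation was in members of the smaller subset. Nfu_g_1_017946, of 6204 bp, had the largest gap between the lowest 7-week fish and the highest other fish, 1.72 on the log2 scale. At 5 weeks it stood at 46.4, 33.9, 59.4, 44.6 and 54.0 CPM and at 7 weeks at 477, 382, 389.8, 682 and 413 CPM (fish 1 to 5). It had 31.2, 27.0, 43.2, 91.2 and 41.3 CPM in the 10-week fish and 52.7, 53.9, 75.5, 115 and 36.3 CPM in the 14-week fish. No fish of another age came within 3-fold of a 7-week fish. Nfu_g_1_019867, of 3384 bp, had the next largest gap, 1.65. It had 21.8, 30.5, 15.3, 24.2 and 12.5 CPM in 7-week fish 1 to 5, and the other 15 fish lay between 0.210 and 3.64 CPM, with 5-week fish 1 and 2 the highest of them at 3.64 and 3.29 CPM.

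Over all members, the 7-week fish lay above all 15 other fish in 48 (32.0%), and this held for 4.39% of the 10284 genes passing the level limits. Without 5-week fish 1 and 2 the numbers were 136 members (90.7%) and 12.9% of those genes. In 27 members a single other fish exceeded the lowest 7-week fish, in 65 members 2 fish did and in 6 members 3 fish did, and in the remaining 4 members 6 to 8 fish did. Since the 7-week levels chose the members, nothing is read from these shares. By number of fish, the largest overlap was that of Nfu_g_1_016809, in which 8 other fish exceeded 7-week fish 5 at 5.34 CPM. Its 7-week fish 1 to 4 had 18.4, 47.5, 30.1 and 35.4 CPM. In Nfu_g_1_020953 it was 7 fish, with levels from 1.21 to 180.3 CPM outside 7 weeks and 229, 191, 301, 372 and 38.1 CPM in 7-week fish 1 to 5.

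**Figure D4:**
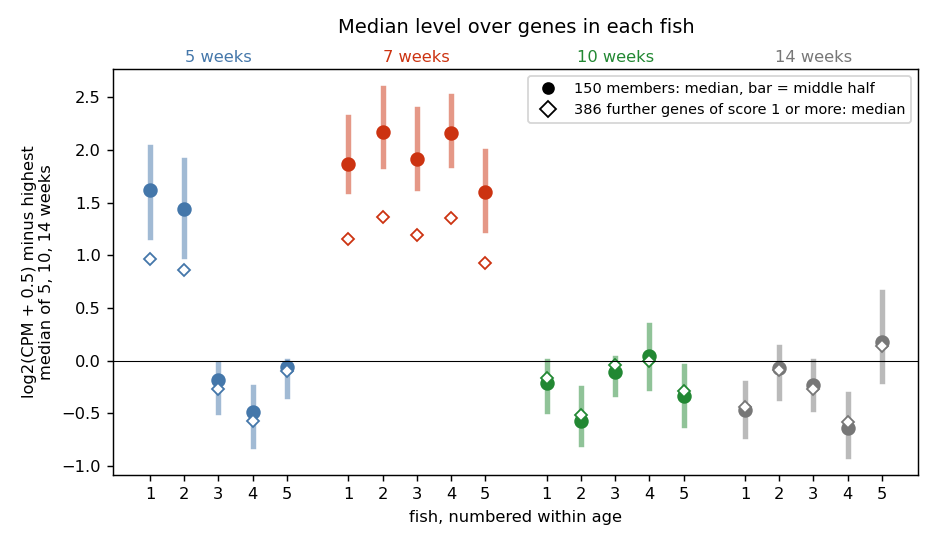
Filled circles give the median over the 150 members in each fish, with bars from the lower to the upper quartile, and open diamonds the median over the 386 further genes of score 1 or more. The y axis is log2(CPM + 0.5) minus the highest median of 5, 10 and 14 weeks. In both sets 5-week fish 1 and 2 lie near the 7-week fish, at 1.62 and 1.44 for the members and 0.97 and 0.86 for the further genes.

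The 7-week fish also differed among themselves. Fish 2 was the highest of all 20 fish in 61 members and fish 4 in 49, and the highest of the 7-week fish was 1 of these 2 in 118 members. Fish 5 was the lowest 7-week fish in 97 members. The SD of log2(CPM + 0.5) between 7-week fish had a median of 0.34 over the members, against 0.24 over the other flat genes, and 7 members had an SD above 1. It was largest in Nfu_g_1_004075, at 1.62, which had 354, 73.9, 98.1, 143 and 15.8 CPM in 7-week fish 1 to 5. This member was also uneven at other ages, 5-week fish 5 standing at 215 CPM and 10-week fish 4 at 189 CPM. It was next largest in Nfu_g_1_020758, at 1.36, in which 7-week fish 5 had 3.69 CPM and the others 18.6 to 56.3 CPM.

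The smallest SD at 7 weeks was that of Nfu_g_1_009289, at 0.08, with 31.2, 31.1, 27.3, 31.5 and 29.7 CPM in 7-week fish 1 to 5. In 5-week fish 1 to 5 it had 33.3, 30.3, 7.99, 5.76 and 8.31 CPM, so that fish 1 and 2 were at or near the 7-week values and the other 3 were not. In the 14-week fish it had 6.47, 6.86, 8.47, 5.53 and 24.9 CPM, and fish 5 was the only 1 of these near the 7-week level. Nfu_g_1_015429 followed with an SD of 0.10 at 7 weeks, where all fish lay between 20.4 and 24.2 CPM. At 5 weeks fish 1 and 2 had 49.3 and 17.2 CPM, and the other 3 had 4.71 to 5.69 CPM.

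The rule used medians and not the spread around them, but a median of 5 fish admits genes in which 2 fish of an age are high. The spread at 5 weeks and the correlations that follow are therefore not independent of the choice of members. It was at 5 weeks that the members were most spread. Their median SD of log2(CPM + 0.5) was 1.07, 0.34, 0.38 and 0.50 at 5, 7, 10 and 14 weeks, against 0.41, 0.24, 0.32 and 0.34 over the other flat genes. The 5-week SD was the largest of the 4 ages in 133 of 150 members. Without 5-week fish 1 and 2 the median SD at 5 weeks was 0.32 over the members and 0.31 over the other flat genes (3 fish). The median correlation between pairs of members was 0.94, 0.48, 0.35 and 0.50 across the 5 fish at 5, 7, 10 and 14 weeks, against 0.15, 0.03, 0.22 and 0.08 between pairs of other flat genes. With TMM scaling, an alternative added for the other flat genes after seeing the data, the values were 0.90, 0.47, 0.20 and 0.44 over the members, against 0.04, 0.02, 0.02 and 0.04 over the other flat genes. The 10-week values thus depended most on the scaling. With 5 fish each such value is imprecise, and all pairs share the same libraries. Without 5-week fish 1 and 2 the value at 5 weeks was 0.45 over the members and 0.03 over the other flat genes. It rests on 3 fish, and the quartiles over pairs of members were -0.35 and 0.87.

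Since the members were chosen on all 20 fish, the rule was also applied to 19 fish at a time and the fish left out was read in the genes chosen without it. Each 7-week fish left out lay above halfway in most of these genes, at 98.7%, 99.3%, 98.0%, 99.3% and 82.0% for fish 1 to 5. The 5-week fish 1 and 2 did so too, in 80.7% and 76.7% of the genes chosen without them. The other 5-week fish did so in 3 of 150, 3 of 133 and 14 of 150 genes for fish 3 to 5. The 10-week fish did so in 0 to 9 of 150 genes and the 14-week fish in 0 to 17, the highest being 14-week fish 5. The level of 7-week fish and of 5-week fish 1 and 2 in these genes was thus high also where the fish had no part in the choice. However, the genes chosen without 5-week fish 1 or fish 2 included 118 and 116 of the members, and the other of these 2 fish stayed in the choice. No share over genes chosen otherwise is set beside these values, so nothing further is read from them.

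Membership depended on the 5-week fish that stood low. Leaving out 1 fish of 7, 10 or 14 weeks kept 134 to 143 of the 150 members. Leaving out 5-week fish 1 or 2 kept 118 or 116. Leaving out 5-week fish 3, 4 or 5 kept 44, 38 or 47, because the median of 4 fish then averages a high and a low fish. With means in place of medians 61 members were kept.

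**Figure D5:**
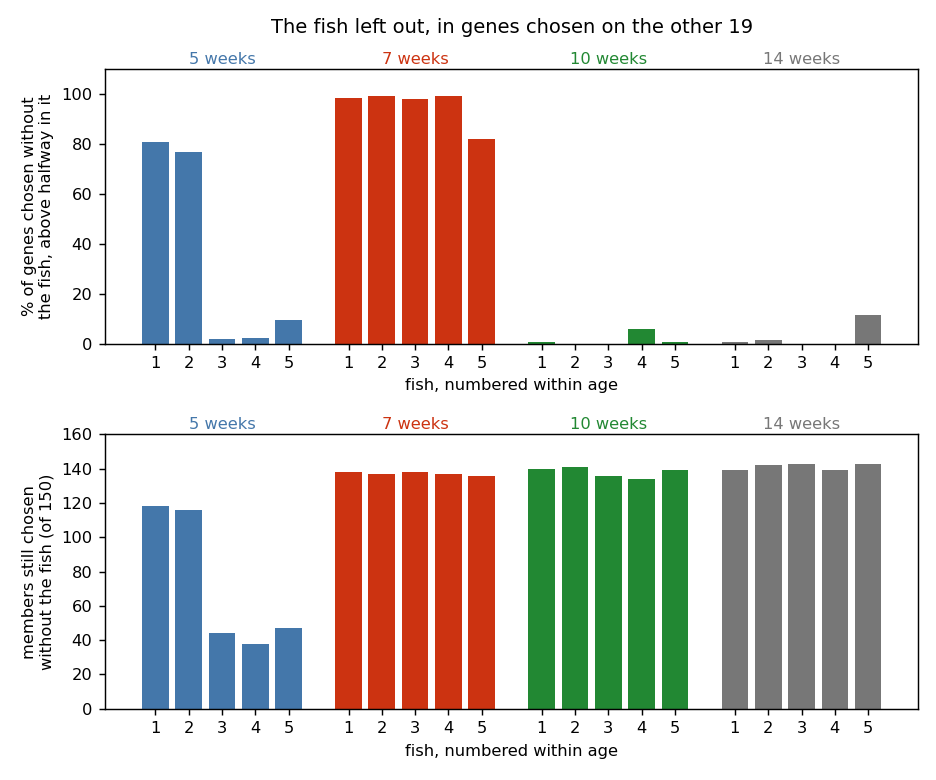
The rule was applied to 19 fish, leaving out the fish on the x axis. The upper bars give the share of the genes so chosen that lie above halfway in the fish left out, 80.7% and 76.7% for 5-week fish 1 and 2. The lower bars give how many of the 150 members are still chosen, 38 to 47 without 5-week fish 3, 4 or 5.

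All 150 members passed the filter on low counts of the fit over all genes, in which edgeR's quasi-likelihood test compared pairs of ages. At an adjusted p under 0.05, 104 members were higher at 7 than at 5 weeks and 0 lower, and over all 16475 genes tested 9.66% were higher and 11.5% lower, 21.1% in either direction. Between 10 and 7 weeks 146 were lower at 10 weeks, where 15.7% of all genes were lower and 27.7% differed in either direction. Between 14 and 7 weeks 147 were lower at 14 weeks, where 16.7% of all genes were lower and 31.0% differed in either direction. These contrasts are those of the rule and nothing is read from the counts. The median log2 fold change over the members was 1.38 for 7 over 5 weeks, -2.28 for 10 over 7 weeks and -2.28 for 14 over 7 weeks, against -0.09, 0.03 and 0.03 over all genes tested. These comparisons share the 7-week fish. The 7 over 5 weeks value was 2.23 without 5-week fish 1 and 2, and 147 members were then called higher at 7 weeks. Of all 16810 genes tested in that fit, 2190 were higher at 7 weeks and 4376 differed in either direction. Leaving out 2 fish that stood high in most members at 5 weeks favours a larger value and more members called, so nothing is read from either.

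The fit compares means, and in it some members were also lower at 10 or 14 weeks than at 5 weeks. Between 10 and 5 weeks 29 members were lower at 10 weeks and 0 higher, where 5.41% of all genes were lower and 2.56% higher, 7.96% in either direction. Between 14 and 5 weeks 12 members were lower at 14 weeks and 0 higher, where 2.65% of all genes were lower and 1.31% higher, 3.95% in either direction. Of these, 26 and 10 were among the 107 members, of 150, high in both 5-week fish 1 and 2. That class was formed from 2 of the 5 fish behind the 5-week mean, which favours such calls in it. For the same reason, leaving both fish out favours fewer calls, and nothing is read from either. Without 5-week fish 1 and 2, 1 member was called between 10 and 5 weeks and 0 between 14 and 5 weeks. Of all 16810 genes tested, 542 and 402 were called there. The median log2 fold changes over the members were then -0.0014 for 10 over 5 weeks and 0.05 for 14 over 5 weeks. With all fish they had been -0.95 and -0.85. Single fish moved these counts as well, in fits that tested 16616 to 16796 genes. Between 10 and 5 weeks leaving out 5-week fish 1 gave 6 members and fish 2 gave 5, where 794 and 590 genes were called. Leaving out 5-week fish 3, 4 or 5 gave 64, 58 or 55 members, where 2397, 1149 and 1719 genes were called. Of the 64 and of the 58, 1 member each was higher at 10 weeks. The count was 19 members without 7-week fish 4 (1098 genes) and 4 to 15 without any single 10-week fish (267 to 1023 genes). Between 14 and 5 weeks it was 1 member without 5-week fish 1 and 1 without fish 2 (451 and 342 genes called). It was 41, 38 or 34 without 5-week fish 3, 4 or 5 (1377, 602 and 797 genes). Without 14-week fish 1, 3 or 4 it was 1 (339, 184 and 137 genes), and without 14-week fish 5 it was 22 (907 genes). It was 4 to 7 without 7-week fish 1, 2, 3 or 4 or 10-week fish 1, 3, 4 or 5 (470 to 601 genes). Both comparisons share the 5-week fish, and the rule limited the span of these medians, so nothing is read from the counts.

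Between 14 and 10 weeks 0 members were called by edgeR and 0 by DESeq2 or limma-voom, and 1 had an unadjusted p under 0.05 in edgeR. In edgeR the share of all genes called was 0.0121%, and the median log2 fold change over the members was 0.05. DESeq2 called 45 of 17566 genes tested and limma-voom 2 of 16475.

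Properties of the libraries of 5-week fish 1 and 2 were measured beside these results. The TMM factor was 1.23 and 1.14 in these fish and 0.849 to 1.19 in the other 18, the highest of those being 10-week fish 3. The median log2(CPM + 0.5) of the other flat genes was 4.29 and 4.13, against 3.86, 3.75 and 3.88 in 5-week fish 3, 4 and 5 and up to 4.16 in the other fish. Over the members the same median was 4.84 and 4.62, against 2.81, 2.56 and 3.01 in 5-week fish 3, 4 and 5. Genes with a read numbered 20403 and 20524, against 19032 to 20497. Except for the TMM factor and flat-gene median of fish 1 and the gene number of fish 2, these values lay within the range of the other 18 fish. Their totals were 22529235, the lowest of all, and 30671390 counts. The 20 most abundant genes took 32.2% and 36.2% of their counts, against 21.2% to 34.3% in the other 18, so that fish 2 was the highest. The part of these in the result was not tested. Spearman correlations covered genes passing the level limits, without the flat genes that differed by 1 or more at 7 weeks in either direction. Genes that were not flat stayed in whatever their 7-week difference. The median for 5-week fish 1 was 0.857 with the 7-week fish and 0.823 with the other 5-week fish. It was 0.801 with the 10-week fish and 0.790 with the 14-week fish. For 5-week fish 2 the values in the same order were 0.864, 0.837, 0.784 and 0.783. For 5-week fish 3 they were 0.816, 0.848, 0.885 and 0.877. For fish 4 they were 0.764, 0.857, 0.824 and 0.8405, and for fish 5 they were 0.846, 0.855, 0.873 and 0.888. The 5-week fish 1 and 2 thus had their highest value with the 7-week fish. The highest was with the 10-week fish for fish 3, the other 5-week fish for fish 4 and the 14-week fish for fish 5. However, 5-week fish 5 came close to 5-week fish 1 in its value with the 7-week fish. So did 10-week fish 1 at 0.844 and 14-week fish 2 at 0.8435, each of which had 3 members above halfway.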

How the data were processed

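Liver RNA from 20 fish, 5 at each of 4 ages, was sequenced after TruSeq RNA v2 library preparation, per the labels' protocols. The authors deposited raw read counts per gene for 26739 identifiers. Per the submitters' processing notes reads passed through CASAVA 1.8.2, an aligner (STAR 2.4.1d) and a counter (featureCounts 1.4.6-p4). The sources used here do not give build or annotation. The kit does not mark strand, so reads of overlapping and antisense genes cannot be told apart, and neither can reads of near-identical copies. The authors also deposited RPKM, whose divisors ran down the table's columns in a cycle of 25 totals, 20 of which matched the library totals (residual SD 0.000133 log2 over 10864 genes). Only the gene lengths they imply were used, and RPKM was recomputed with each library's own total.

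The members, and the comparisons and lists, were chosen with earlier results of these data known. Identifiers were chosen by a rule of at most 2 per quantity: highest score, highest RPKM at 7 weeks, just inside and outside the list, largest and smallest SD at 7 weeks, largest gap and most overlap. Planned lists of pathway and cell type genes could not be applied without gene names. Ages were compared with edgeR 4.0.16 in R 4.3.3 (filterByExpr, TMM, 1 mean per age over all 20 fish, quasi-likelihood test, Benjamini-Hochberg over 16475 genes), a fit that was tested on simulated data. Alternatives were DESeq2 1.42.0, limma 3.58.1 (voom), RLE factors, no filter, 2 ages only, and leaving out fish. All 40 pairs of fish of 1 age differed by more than sampling noise (smallest chi-square per degree of freedom 64.8). Correlations are descriptions. Library totals of 22529235 to 42886761 counts set the precision.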

Additional observations from a re-analysis of the deposited data

Results flagged for a closer look

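Of 68 groups of 5 fish tested with Dixon's ratio on the log2(CPM + 0.5) scale (16 genes and the median over the members, at 4 ages each), 2 held a fish far from the others, and chance flags about 1 in 20, a rate that gives more than 2 over 68 groups. The fish was 14-week fish 5 in both. Nfu_g_1_017900 had 26.0 CPM in this fish and 90.2 to 113 CPM in the other 14-week fish, with a gap of 0.845 of the range. Nfu_g_1_009289 had 24.9 CPM in it and 5.53 to 8.47 CPM in the others, with a gap of 0.723 of the range. Nothing is read from these 2. In the genes used for the Spearman correlations above, the median for 14-week fish 5 with the other 14-week fish was 0.808. For the other 14-week fish it was 0.927 to 0.935. Without 14-week fish 5, 26 genes were called between 14 and 10 weeks, against 2 with all fish. Whether this fish differs in its library was not tested.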

How the results depend on the processing

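No paired analysis was made, because the labels pair no fish across ages. Members still chosen, of 150, were 61 with means in place of medians, 81 with a span under 0.4, 94 with no limit on the span and 99 without 5-week fish 1 and 2, and 38 to 143 with 1 fish left out. The 536 genes of score 1 or more became 342 with a minimum of 20 CPM, 308 with a span under 0.4 and 133 to 690 with 1 fish left out. Members called between 7 and 5 weeks (104) were 67, and genes (3481) 1996, with the fish of the 2 ages only, and 82 to 131 and 2157 to 4230 with 1 fish left out. Between 10 and 5 weeks (29 members, 1312 genes) they were 54 and 2422 with DESeq2, 5 and 621 with limma-voom, 0 and 241 with 2 ages only, 1 and 542 without 5-week fish 1 and 2, and 4 to 64 and 267 to 2397 with 1 fish left out. Between 14 and 5 weeks (12 members, 651 genes) they were 36 and 1639 with DESeq2, 1 and 283 with limma-voom, 0 and 5 with 2 ages only, and 0 and 402 without 5-week fish 1 and 2. RLE factors and no filter gave 6 members each there, with 580 and 613 genes, and 1 fish left out gave 1 to 41 members and 137 to 1377 genes. Between 14 and 10 weeks the 2 genes called were 45 with DESeq2, 1 with 2 ages only, 4 without 5-week fish 1 and 2, and 0 to 26 with 1 fish left out. The cause of these shifts was not tested. Genes tested numbered 16475 with limma-voom and RLE factors, 22484 with no filter and 17566 to 19291 with DESeq2. They numbered 15303 to 15692 with 2 ages only, 16810 without 5-week fish 1 and 2, and 16616 to 16796 with 1 fish left out. Between 10 and 7 weeks and between 14 and 7 weeks 143 to 148 members were called with 1 fish left out. The genes called were 3602 to 5057 and 4090 to 5684 there. Level and spread at each age were also compared under TMM scaling, a pseudocount of 2 or any 1 fish left out. The mean over fish of the median level over the members moved by less than 1 SD between the fish. The members' median SD moved by less than 1 SD taken over the members. These limits are wide. At 5 weeks the median level ran from 2.56 to 4.84 (log2) between fish, and its mean from 3.25 to 3.82 with 1 fish left out. Leaving out 5-week fish 3, 4 or 5 gave the lowest numbers of genes of score 1 or more, 188, 133 and 217.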

Other observations

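The 386 further genes of score 1 or more showed the members' pattern. They met the same rule on the same fish and differ from the members by rank alone, so this is no separate support. Of these 386 genes, 305 lay above halfway in 5-week fish 1 and 280 in 5-week fish 2, against 0 to 7 in the other 5-week fish. In 14-week fish 5, 82 of them did (21.2%), and in 10-week fish 4, 27 did (6.99%).

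Genes with the reverse pattern were read in the same way. By the mirrored rule, 205 flat genes had a 7-week median at least 1 below the lowest of the other 3 medians, and the 150 of largest difference were read in each fish. Below halfway to the 7-week median lay 35 of them in 5-week fish 1 and 41 in 5-week fish 2, against 4 to 8 in the other 5-week fish and 90 to 149 in the 7-week fish. Their median level relative to the lowest other median was -0.10 and -0.37 (log2) in 5-week fish 1 and 2 and -0.91 to -1.63 in the 7-week fish. With TMM scaling, added after seeing the data, 50 of the mirrored genes lay below halfway in 5-week fish 1 and 52 in 5-week fish 2, against 4 to 6 in the other 5-week fish. Whether the mirrored genes differ from the members in this was not tested.

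Among the 150 members, 2 pairs had consecutive identifier numbers. The sources used here do not say whether these numbers follow the genome.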
